A study of Homo sapiens with 12 samples.

Results

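The enzymes that build cholesterol and fatty acids, together with the regulators that switch their genes on, were followed across all 12 arrays of a study of 5’isomiR-140-3p and hsa-miR-140-3p in human breast cells. The 33 genes were taken as a list of known function, and the list was chosen with earlier results of these data known. In it, 9 genes lead to mevalonate, isoprenoids and squalene, 10 encode sterol enzymes, 6 belong to the SREBP system or carry sterols, and 8 serve fatty acid synthesis. Of the 33 genes, 32 had a probe paired with them, FDFT1 was not analysed here, and 30 of the 10491 genes tested in the series were members. SREBF2 lay above background on 1 array and STARD4 on 0 arrays, so neither was tested.

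Cholesterol and fatty acids are both built from acetyl-CoA in the cytosol and at the endoplasmic reticulum. The genes of these routes share the SREBP transcription factors, which SCAP escorts to the Golgi for activation when membrane sterol is low and which INSIG proteins hold back in the endoplasmic reticulum when it is high. Dividing epithelial and breast cancer cells use both routes to make membrane.

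MDA-MB-231, a triple-negative breast cancer line grown in RPMI medium, and MCF10A, an immortalised non-tumorigenic mammary epithelial line grown in DMEM-F12 medium, were transfected with 30 nM of a mimic, a synthetic small RNA that acts as the miRNA, and harvested after 48 h. In each line, 2 arrays measured cells with 5’isomiR-140-3p (isomiR), 2 measured cells with the canonical hsa-miR-140-3p (miR), and 2 measured control cells, 1 with mimic-ctrl1 and 1 with mimic-ctrl2. All cells received Lipofectamine, and a mimic raises the small RNA beyond what the cell makes itself. The labels call the mimic arrays biological replicates, and the control group of a line joins 2 different control mimics, so its spread also holds the difference between them.

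The miRNA mimics differ by a shift of their start by 1 base, which moves the seed, the stretch from base 2 to base 8 that pairs with target mRNAs. The isomiR also runs further at its 3′ end, so the start shift and the longer end cannot be told apart. Both sequences are shown because the mimics are set against each other below. They were read from the RefSeq hairpin of MIR140 on build GRCh38.p14, at chr16:69933143-69933164 for the isomiR and chr16:69933142-69933162 for the miRNA, both on the plus strand, with the seed in capitals, and the length of 22 bases for the isomiR follows the study's methods.
5’isomiR-140-3p: aCCACAGGguagaaccacggac
hsa-miR-140-3p: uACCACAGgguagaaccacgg

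Promoters of 4 members are shown because MVD, NSDHL and DHCR7 were lower with the isomiR than with the miR in both lines, whereas HMGCS1 differed the other way in MDA-MB-231. Each holds 250 bases before and 50 bases from the transcription start (RefSeq, GRCh38.p14), written 5′ to 3′ on the strand of the gene, and capitals mark the letters CCAAT or, on the other strand, ATTGG. HMGCS1 is at chr5:43313363-43313662 (minus strand), MVD at chr16:88663042-88663341 (minus), NSDHL at chrX:152830813-152831112 (plus) and DHCR7 at chr11:71448344-71448643 (minus).
HMGCS1: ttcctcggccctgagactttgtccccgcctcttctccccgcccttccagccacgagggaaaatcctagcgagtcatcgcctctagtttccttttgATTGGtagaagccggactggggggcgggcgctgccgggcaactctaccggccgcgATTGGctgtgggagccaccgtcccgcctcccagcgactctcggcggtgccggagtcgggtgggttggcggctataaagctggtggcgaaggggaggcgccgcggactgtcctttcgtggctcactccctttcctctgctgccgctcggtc
MVD: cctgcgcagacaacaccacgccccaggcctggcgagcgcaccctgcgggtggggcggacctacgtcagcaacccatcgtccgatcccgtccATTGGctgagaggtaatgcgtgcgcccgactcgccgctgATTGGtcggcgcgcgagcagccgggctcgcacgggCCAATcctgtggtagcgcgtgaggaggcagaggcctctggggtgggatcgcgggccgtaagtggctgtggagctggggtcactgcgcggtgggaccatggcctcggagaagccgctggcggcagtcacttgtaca
NSDHL: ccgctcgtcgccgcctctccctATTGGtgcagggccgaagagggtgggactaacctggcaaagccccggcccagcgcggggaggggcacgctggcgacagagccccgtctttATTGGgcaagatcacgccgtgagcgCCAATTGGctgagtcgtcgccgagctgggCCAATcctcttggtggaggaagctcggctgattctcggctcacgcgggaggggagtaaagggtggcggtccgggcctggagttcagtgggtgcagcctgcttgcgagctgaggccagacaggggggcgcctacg
DHCR7: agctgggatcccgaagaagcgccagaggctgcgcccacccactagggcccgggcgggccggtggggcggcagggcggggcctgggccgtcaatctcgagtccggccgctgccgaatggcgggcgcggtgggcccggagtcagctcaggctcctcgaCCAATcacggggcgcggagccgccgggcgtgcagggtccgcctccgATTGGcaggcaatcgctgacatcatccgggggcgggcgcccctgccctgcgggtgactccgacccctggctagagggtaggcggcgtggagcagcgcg

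Where a gene had several promoter entries, an entry holding CCAAT was the one shown, so its presence in the promoters above was favoured by that choice. The CCAAT letters stood 2 times in the promoter of HMGCS1, 3 times in MVD, 5 times in NSDHL, where 2 copies overlap as CCAATTGG, and 2 times in DHCR7. All 12 copies lay between 228 and 48 bases before the start. Of the 33 members, 29 were matched to a promoter entry, and 22 of these (75.9%) held CCAAT on either strand, against 39.7% of the 27305 genes with an entry. At least 2 copies were found in 14 members (48.3%), against 12.9% of all genes. Other letters were also searched on both strands. GGGCGG was found in 28 members (96.6%) and in 48.3% of all genes. TCACNCCAC was found in SREBF2 alone among the members and in 1.39% of all genes, and TCACGTGA in INSIG1 alone and in 1.18%. These counts describe letters in windows of 300 bases, and ACAT2, FDFT1, SQLE and FASN were not analysed here. A gene was counted if any of its entries held the letters, so genes with more entries were favoured. CCAAT was found in 34.6% of the 35116 entries. The 27305 genes are all genes with an entry and not only the genes tested on the arrays.

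The arrays were even in depth: the background level, the 0.99 quantile of 457 olfactory receptor probes, lay between 129 and 142 intensity units, and 13005 to 14848 probes exceeded it. Between the replicates of a mimic the correlation over tested genes was 0.992 to 0.995, and between the control arrays it was 0.981 in MDA-MB-231 and 0.985 in MCF10A. KRT5, KRT14, CDH1 and DSG3, which mark basal epithelium, were above background on 0 of 6 MDA-MB-231 arrays and 6 of 6 MCF10A arrays. VIM and AXL were brighter in MDA-MB-231 and TGFBI dimmer, whereas ZEB1, SPARC and FN1 were at background in both lines.

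Member values are normalised intensities after background correction and quantile normalization, given for replicate 1 and replicate 2 of a mimic and for mimic-ctrl1 and mimic-ctrl2. Calls of lower needed a level under 65% of the comparison group and calls of higher a level exceeding it by over 65% (log2 fold changes of -0.62 and 0.72), and both needed an adjusted p under 0.05 from limma over all genes tested. The p-values rest on the spread between the 2 arrays of a group, pooled over the 6 groups and moderated over genes. This spread includes the difference between the control mimics. In bulk RNA, fewer cells that express a gene and less RNA per cell cannot be told apart. The comparisons of both mimics with the controls of a line share those control arrays, so their values stand side by side.

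With the isomiR, 4 of 30 members were called lower in MDA-MB-231 (13.3%, against 5.09% of all genes) and 0 higher (2.41% of all genes). In MCF10A, 4 of 30 were called lower (13.3%, against 7.34%) and 0 higher (5.25%). ACAT2 was on both lists, and the other calls were ACSS2, SCAP and TM7SF2 in MDA-MB-231 and FADS1, DHCR7 and IDI1 in MCF10A. At an unadjusted p under 0.05, 2 members were higher in MDA-MB-231 and 1 in MCF10A, and the methods' t-test with the fold limit called 0 higher in either line. The median log2 fold change of the members was -0.12 in MDA-MB-231 and -0.24 in MCF10A, beside 0.01 in each line over all genes.

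The canonical miR called fewer members. In MDA-MB-231, HMGCS1 alone was lower (3.33%, against 1.02% of all genes) and 0 members were higher (0.191%). In MCF10A, 0 of 30 were lower (0.715% of all genes) and 0 higher (0.143%). At an unadjusted p under 0.05 in MCF10A, 3 members were lower and 3 higher, none past the fold limit, and the methods' t-test called 0. The median member stood at 0.10 in MDA-MB-231 and 0.09 in MCF10A, beside -0.004 and 0.009 over all genes.

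**Figure D1:**
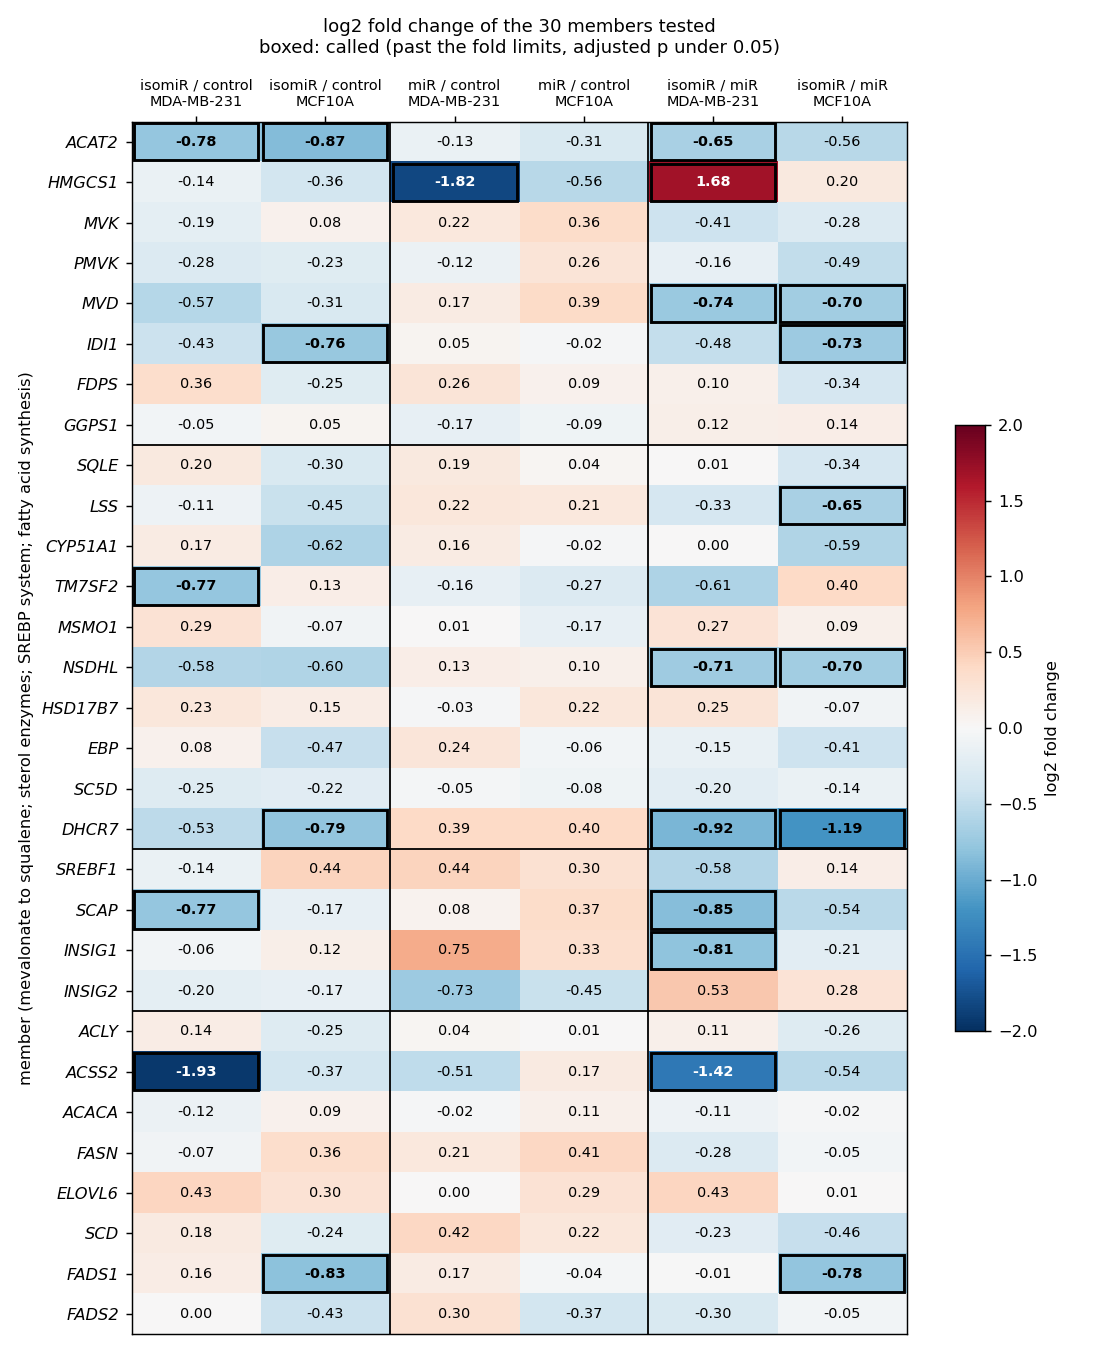
Log2 fold change of the 30 members tested (rows, in pathway order) in 6 comparisons (columns), with the scale from -2 to 2 and a box around each called value. Of the 23 boxes, 14 lie in the columns of isomiR over miR, 8 in those of isomiR over control and 1 in those of miR over control, and HMGCS1 carries the dark blue value with the miR in MDA-MB-231 (-1.82) and the dark red value of isomiR over miR there (1.68).

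The mimics were also set against each other. No control array belongs to either group compared, but all arrays, the controls included, share the estimate of the spread behind the p-values. The isomiR was lower than the miR for 7 of 30 members in MDA-MB-231 (23.3%, against 3.58% of all genes) and higher for 1 (3.33%, against 1.45%). In MCF10A it was lower for 6 of 30 (20%, against 6.43%) and higher for 0 (5.21% of all genes; 0 at an unadjusted p under 0.05 and 0 by the methods' t-test). Without 1 of the arrays compared, the count of lower members was 1 to 3 in MDA-MB-231, and in MCF10A it was 2 without miR replicate 2 or isomiR replicate 1 and 3 without isomiR replicate 2. Such a fit leaves a group of 1 array. With arrays left out in turn the lower calls over all genes also moved, so these counts do not describe the members alone. With all arrays, MVD, NSDHL and DHCR7 were called lower in both lines. ACAT2, SCAP, INSIG1 and ACSS2 were further calls in MDA-MB-231, and IDI1, LSS and FADS1 in MCF10A. The median member was -0.22 in MDA-MB-231 and -0.31 in MCF10A, beside 0.011 and -0.001 over all genes. Below 0 lay 20 and 23 of the 30 members, against 48.6% and 50.2% of all genes.

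**Figure D2:**
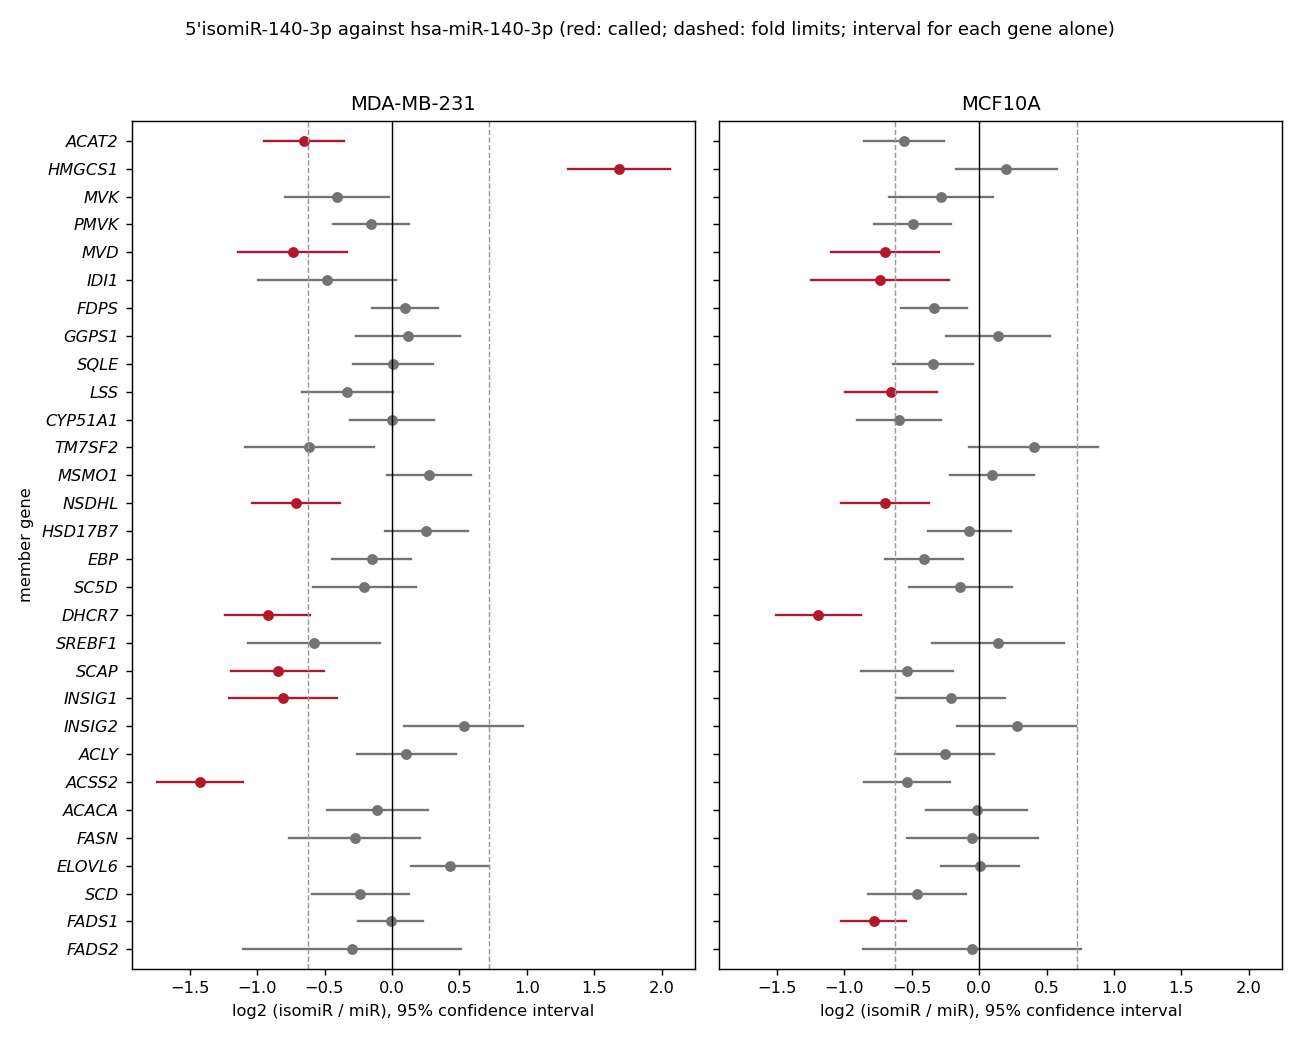
Log2 of isomiR over miR for each member (points) with the 95% confidence interval of that gene alone (lines), MDA-MB-231 on the left and MCF10A on the right, called members in red and the fold limits dashed. MVD, NSDHL and DHCR7 lie left of the lower limit in both panels, and HMGCS1 lies at 1.68 in MDA-MB-231 and at 0.20 in MCF10A.

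The route starts with ACAT2, the cytosolic thiolase that joins acetyl-CoA units. In MDA-MB-231, ACAT2 read 1181 and 1161 with the isomiR, 1758 and 1927 with the miR and 2122 and 1901 with the controls. MCF10A cells gave 1220.3 and 1208 with the isomiR, 1624 and 1968 with the miR and 2087 and 2347 with the controls. All 4 isomiR arrays were below every other array of their line, at close to the same level in both lines. Against control, ACAT2 was at 58.3% in MDA-MB-231 (log2 fold change -0.78 ± 0.13 SE, adjusted p = 0.0053) and at 54.9% in MCF10A (log2 fold change -0.87 ± 0.13 SE, adjusted p = 0.0017). Between isomiR and miR the log2 fold change was -0.65 (adjusted p = 0.017) in MDA-MB-231, a call that was lost without any 1 of those 4 arrays, and -0.56 (adjusted p = 0.017) in MCF10A, where it stayed inside the fold limit. The effect of the isomiR differed between lines by 0.09 (95% confidence interval -0.33 to 0.51).

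HMGCS1, the next enzyme, condenses acetoacetyl-CoA with acetyl-CoA into the substrate of mevalonate production. In MDA-MB-231 its values were 534 and 601 with the isomiR, 167 and 187 with the miR and 589 and 661 with the controls. Both miR arrays were far below the other 4, and the isomiR arrays overlapped the controls. HMGCS1 was the member with the largest change with the miR in that line, at 28.3% of control (log2 fold change -1.82 ± 0.17 SE, adjusted p = 0.0011), and the largest between the mimics, at 321% with the isomiR relative to the miR (log2 fold change 1.68 ± 0.17 SE, adjusted p = 0.00047).

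In MCF10A, HMGCS1 read 1548 and 1538 with the isomiR, 1352 and 1334 with the miR and 1652 and 2378 with the controls. Both miR arrays were again the lowest of the line, but by less, and the controls themselves were 0.53 apart on the log2 scale. The log2 fold change with the miR was -0.56 (adjusted p = 0.17), which was the largest change of a member there (standard error 0.17) and no call, although without mimic-ctrl1 it was -0.82 and called (adjusted p = 0.042). The miR effect differed between the lines by -1.26 on the log2 scale (95% confidence interval -1.79 to -0.73, adjusted p = 0.23), so a difference between lines was not called. Over all genes 0 were called lower and 0 higher for that difference (0% each), with 2 members lower and 0 higher at an unadjusted p under 0.05. HMGCS1 was paired with 1 probe, so no other probe checks it.

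MVD and IDI1 act further along, on mevalonate diphosphate and on isopentenyl diphosphate. MVD was dim in MDA-MB-231, at 65.3 and 70.5 with the isomiR, 108 and 119 with the miR and 89.9 and 113 with the controls. MCF10A values of MVD were 162 and 168 with the isomiR, 224 and 320.5 with the miR and 192 and 218 with the controls. In both lines the isomiR arrays were the lowest, and the miR and control arrays overlapped in MDA-MB-231 but not in MCF10A. IsomiR over miR gave -0.74 (adjusted p = 0.037) in MDA-MB-231 and -0.70 (adjusted p = 0.023) in MCF10A, both calls, whereas against control the isomiR gave -0.57 (adjusted p = 0.072) in MDA-MB-231 and -0.31 (adjusted p = 0.26) in MCF10A, neither a call. The MDA-MB-231 call was lost without any 1 of its 4 mimic arrays or of the isomiR arrays of MCF10A. The MCF10A call was lost without either isomiR array or without miR replicate 2, when the log2 fold change was -0.44.

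IDI1 read 194 and 248 with the isomiR, 279 and 335 with the miR and 271 and 322 with the controls in MDA-MB-231. For MCF10A the IDI1 values were 319.7 and 251 with the isomiR, 479 and 463 with the miR and 379 and 603 with the controls. The isomiR arrays were the lowest in both lines, with wide gaps between the control arrays of MCF10A. In that line IDI1 was at 59.2% of control (log2 fold change -0.76 ± 0.23 SE, adjusted p = 0.042) and at 60.1% of the miR (log2 fold change -0.73, adjusted p = 0.049). The call against control was lost without mimic-ctrl2, at -0.42 (adjusted p = 0.24), and it was kept under 7 of 23 alternatives, as the call against the miR was under 7 of 25. In MDA-MB-231 the values were -0.43 (adjusted p = 0.27) against control and -0.48 (adjusted p = 0.26) against the miR, no calls.

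The remaining 4 tested members of the mevalonate branch, the kinases MVK and PMVK and the prenyl synthases FDPS and GGPS1, were called in none of the 6 comparisons within a line. Their log2 fold changes with the isomiR ranged from -0.28 (PMVK) to 0.36 (FDPS) in MDA-MB-231 and from -0.25 (FDPS) to 0.08 (MVK) in MCF10A. Over the 8 tested members of the branch, the median with the isomiR was -0.23 in MDA-MB-231 and -0.28 in MCF10A. With the miR the median was -0.04 in MDA-MB-231 and 0.03 in MCF10A.

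Among the sterol enzymes, which turn squalene into cholesterol, DHCR7 moved most between the mimics. This reductase completes a cholesterol molecule from its direct precursor. DHCR7 read 353 and 422 with the isomiR, 669 and 798 with the miR and 558 and 554 with the controls in MDA-MB-231. In MCF10A the same probe read 858 and 825 with the isomiR, 1828 and 2026 with the miR and 1356 and 1569.8 with the controls. The 3 groups did not overlap in either line, and the order was the same: isomiR lowest, control between, miR highest.

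Against the miR, DHCR7 with the isomiR was at 52.8% in MDA-MB-231 (log2 fold change -0.92 ± 0.14 SE, adjusted p = 0.0045) and at 43.7% in MCF10A (log2 fold change -1.19 ± 0.14 SE, adjusted p = 0.00054), and in MCF10A this was the largest change of a member between the mimics. Against control it was called lower with the isomiR in MCF10A, at 57.7% (log2 fold change -0.79 ± 0.14 SE, adjusted p = 0.004), and not in MDA-MB-231, at -0.53 (adjusted p = 0.041). With the miR the log2 fold changes were 0.39 (adjusted p = 0.23) in MDA-MB-231 and 0.40 (adjusted p = 0.24) in MCF10A, positive in both lines and no call in either. The line difference of the isomiR effect was 0.27 (95% confidence interval -0.18 to 0.72). The second probe of DHCR7 gave -0.97 in MDA-MB-231 and -1.18 in MCF10A between the mimics. The MDA-MB-231 call was lost without miR replicate 2, at -0.79 (adjusted p = 0.056).

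NSDHL, a dehydrogenase that helps to remove methyl groups from the sterol ring, gave 534 and 616 with the isomiR, 909 and 973 with the miR and 984 and 750.4 with the controls in MDA-MB-231. In MCF10A it gave 815 and 835 with the isomiR, 1321 and 1354 with the miR and 1307 and 1197 with the controls. The isomiR arrays were the lowest of each line, without overlap. NSDHL was at 61% of the miR in MDA-MB-231 (log2 fold change -0.71, adjusted p = 0.017) and 61.6% in MCF10A (log2 fold change -0.70, adjusted p = 0.0097), both calls. Against control it was at 66.7% in MDA-MB-231 (log2 fold change -0.58, adjusted p = 0.03) and 65.9% in MCF10A (log2 fold change -0.60, adjusted p = 0.018), past the p threshold but just inside the fold limit. Without 1 of the arrays compared, the call against the miR was lost in every case in MDA-MB-231 and for 3 of 4 arrays in MCF10A, while the log2 fold change stayed between -0.82 and -0.61.

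LSS closes the sterol ring as lanosterol synthase. Its MDA-MB-231 values were 304 and 353 with the isomiR, 421 and 403 with the miR and 401 and 309.9 with the controls. Its MCF10A values were 492 and 459 with the isomiR, 716 and 781 with the miR and 602 and 696 with the controls. IsomiR and control arrays overlapped in MDA-MB-231 and were apart in MCF10A. The call was for isomiR against miR in MCF10A (63.6%, log2 fold change -0.65 ± 0.15 SE, adjusted p = 0.016), and it was lost when any 1 of those 4 arrays was left out.

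TM7SF2, a sterol reductase that works just after the lanosterol demethylase CYP51A1, was called in MDA-MB-231, the line where it was brighter. In MDA-MB-231 it read 96.6 and 118 with the isomiR, 162 and 164 with the miR and 167 and 198 with the controls. In MCF10A it read 77.2 and 54.7 with the isomiR, 56.8 and 42.5 with the miR, both of which were not above background, and 67 and 52.4 with the controls. The isomiR arrays were the lowest in MDA-MB-231 and overlapped the controls in MCF10A. TM7SF2 was called lower with the isomiR in MDA-MB-231 (58.7%, log2 fold change -0.77 ± 0.21 SE, adjusted p = 0.046), a call lost without any 1 of the 6 arrays of that line. The line difference was -0.90 (adjusted p = 0.13).

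CYP51A1 was called for the difference between lines. Its log2 fold change with the isomiR was 0.17 (adjusted p = 0.5) in MDA-MB-231 and -0.62 (adjusted p = 0.013) in MCF10A, a difference of 0.78 (95% confidence interval 0.34 to 1.23, adjusted p = 0.049). Neither value within a line was called, the MCF10A value lying just inside the fold limit, and the call for the difference was kept under 4 of 20 alternatives. The other 5 sterol enzymes, SQLE, MSMO1, HSD17B7, EBP and SC5D, were called with no mimic, and their log2 fold changes with the isomiR ran from -0.25 (SC5D) to 0.29 (MSMO1) in MDA-MB-231 and from -0.47 (EBP) to 0.15 (HSD17B7) in MCF10A. Over all 10 sterol enzymes the median was -0.01 in MDA-MB-231 and -0.37 in MCF10A with the isomiR, and it was 0.15 in MDA-MB-231 and 0.01 in MCF10A with the miR.

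**Figure D3:**
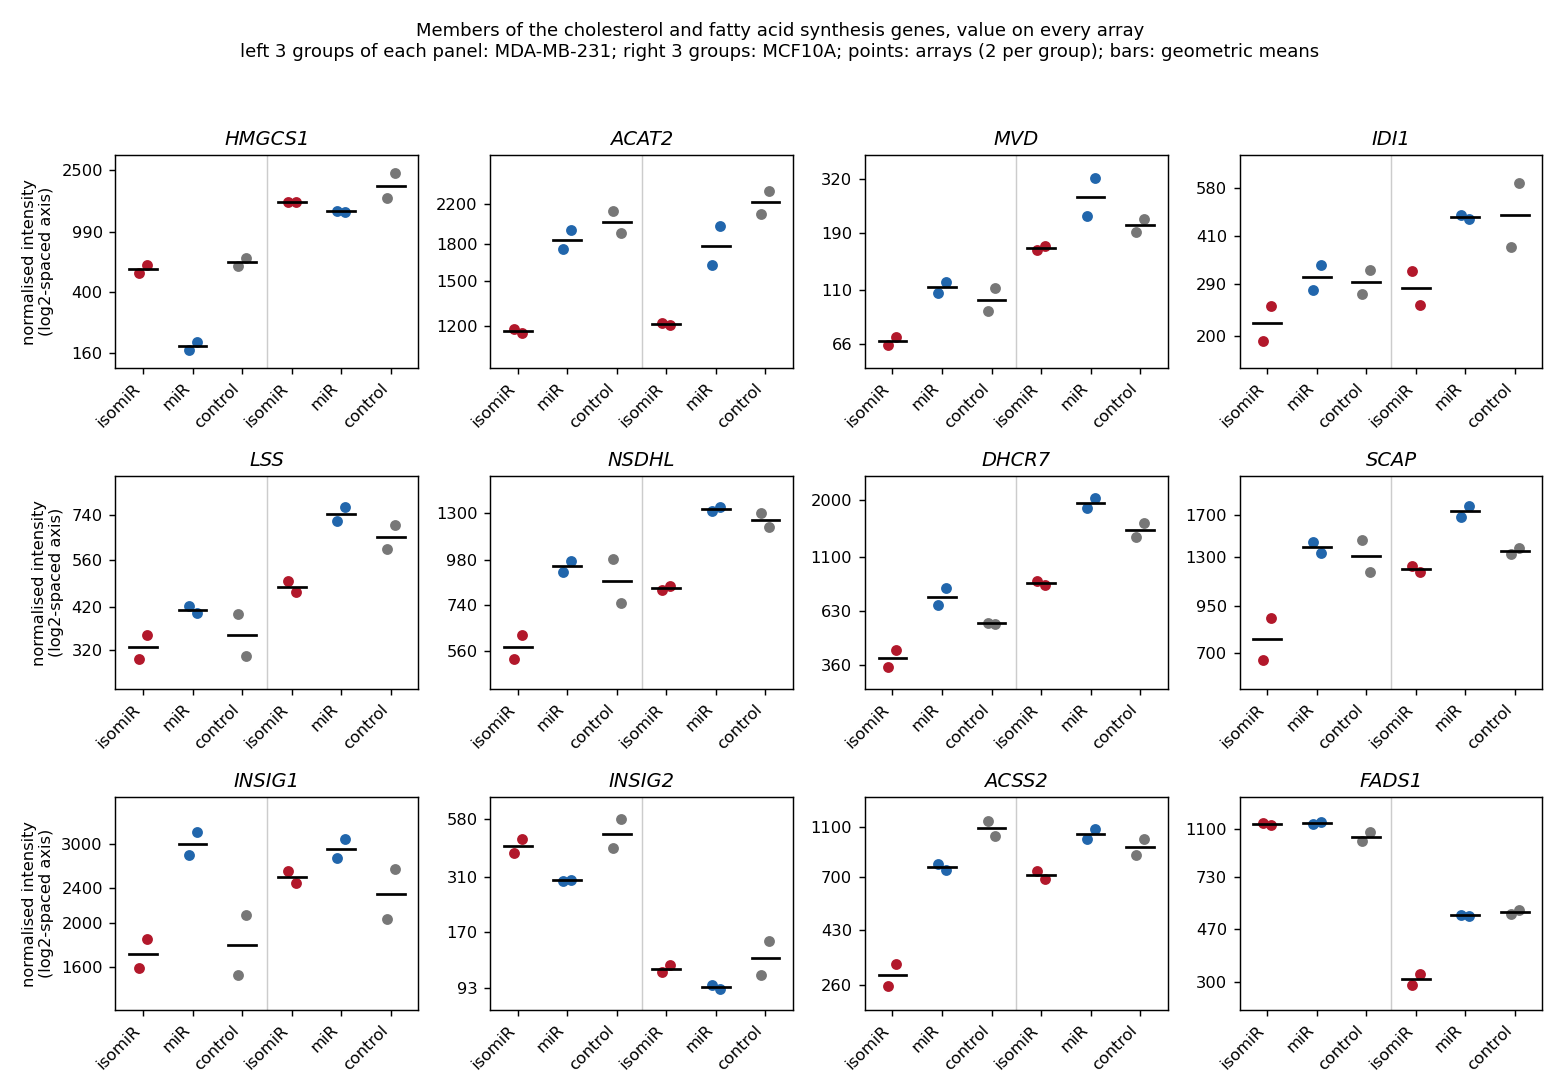
Normalised intensity on each array (points, 2 per group; log2-spaced axis) with the geometric mean (bar) for 12 members, MDA-MB-231 in the left and MCF10A in the right part of each panel, in the order isomiR, miR, control. HMGCS1 drops to 167 and 187 with the miR in MDA-MB-231, ACSS2 to 257 and 316 with the isomiR there, and FADS1 to 292 and 323 with the isomiR in MCF10A.

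Of the SREBP system, SCAP, the escort of the SREBP factors, was the member that changed against control. SCAP read 671 and 879 with the isomiR, 1435 and 1333 with the miR and 1455 and 1183 with the controls in MDA-MB-231. MCF10A gave SCAP values of 1229 and 1177 with the isomiR, 1682 and 1809 with the miR and 1322 and 1381 with the controls. The isomiR arrays were the lowest in both lines, and only in MDA-MB-231 did they lie far below the controls. SCAP was at 58.6% of control there (log2 fold change -0.77 ± 0.15 SE, adjusted p = 0.011) and at 55.5% of the miR (log2 fold change -0.85, adjusted p = 0.01), both calls. In MCF10A the values were -0.17 (adjusted p = 0.49) against control and -0.54 (adjusted p = 0.036) against the miR. The line difference of the isomiR effect was -0.60 (95% confidence interval -1.09 to -0.12, adjusted p = 0.15). Without isomiR replicate 1 the call against control was lost, at -0.58 (adjusted p = 0.093), and the call against the miR was lost without that array or either miR array.

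INSIG1 and INSIG2 encode the proteins that hold SCAP in the endoplasmic reticulum. INSIG1 read 1594 and 1844 with the isomiR, 2829.9 and 3186 with the miR and 1535 and 2083 with the controls in MDA-MB-231. In MCF10A, INSIG1 was at 2607 and 2455 with the isomiR, 2786 and 3071 with the miR and 2047 and 2639 with the controls. The miR arrays were the highest of each line and the isomiR arrays overlapped the controls. INSIG1 was called lower with the isomiR than with the miR in MDA-MB-231 (57.1%, log2 fold change -0.81 ± 0.18 SE, adjusted p = 0.024), a call lost without any 1 of those 4 arrays. With the miR against control it stood at 0.75 (adjusted p = 0.079) in MDA-MB-231 and 0.33 (adjusted p = 0.46) in MCF10A, no calls. The MDA-MB-231 value passed with trend and robust moderation (adjusted p = 0.014), and without mimic-ctrl2 it was 0.97 (adjusted p = 0.033).

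A second probe of INSIG1, above background on 11 arrays, differed more with the miR. It read 47.6 and 56.3 with the isomiR, 114 and 115 with the miR and 42.8 and 71.6 with the controls in MDA-MB-231, and 91.1 and 77 with the isomiR, 183 and 134 with the miR and 72.1 and 82.5 with the controls in MCF10A. The miR arrays were above every other array of the line, with a log2 fold change against control of 1.05 in MDA-MB-231 and 1.02 in MCF10A. The isomiR gave -0.10 in MDA-MB-231 and 0.12 in MCF10A on this probe. The gene was tested on its brighter probe only.

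INSIG2 read 398 and 464 with the isomiR, 297 and 298 with the miR and 421 and 579 with the controls in MDA-MB-231. In MCF10A its values were 110.2 and 119 with the isomiR, 96.2 and 92.3 with the miR and 106 and 155 with the controls. The miR arrays were the lowest of each line, the reverse of INSIG1. The log2 fold changes with the miR were -0.73 (adjusted p = 0.12) in MDA-MB-231 and -0.45 (adjusted p = 0.35) in MCF10A, no calls, although without mimic-ctrl1 the MDA-MB-231 value was -0.96 and called (adjusted p = 0.046).

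SREBF1 encodes SREBP1, which favours genes of fatty acid synthesis. SREBF1 read 193 and 248 with the isomiR, 353 and 301 with the miR and 301 and 192 with the controls in MDA-MB-231. In MCF10A it read 445 and 369 with the isomiR, 353 and 384 with the miR and 321 and 277 with the controls. Both mimics lay above the controls in MCF10A, and in MDA-MB-231 the isomiR overlapped controls that were 0.65 apart on the log2 scale. No comparison of SREBF1 within a line was called, with log2 fold changes from -0.58 (isomiR over miR, MDA-MB-231) to 0.44 (miR in MDA-MB-231 and isomiR in MCF10A). SREBF2, which encodes SREBP2, the factor that favours sterol genes, had deposited intensities of 124 and 123 with the isomiR, 123 and 117 with the miR and 126 and 127 with the controls in MDA-MB-231. In MCF10A, SREBF2 had 147 and 113 with the isomiR, 123 and 127 with the miR and 127 and 127 with the controls, and the array at 147 was the one above background. STARD4, a sterol carrier, had 82.9 to 118 on the 12 arrays and none above background.

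For the 4 tested members of this system, the median log2 fold change with the isomiR was -0.17 in MDA-MB-231 and -0.02 in MCF10A. With the miR it was 0.26 in MDA-MB-231 and 0.32 in MCF10A. INSIG2 alone lay below 0 with the miR in each line.

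In fatty acid synthesis, ACSS2 changed in MDA-MB-231 and FADS1 in MCF10A. ACSS2 makes acetyl-CoA from acetate. It read 257 and 316 with the isomiR, 784 and 745 with the miR and 1162 and 1018 with the controls in MDA-MB-231. The 3 groups were apart, with the isomiR lowest. This was the largest change of a member with the isomiR in MDA-MB-231, to 26.2% of control (log2 fold change -1.93 ± 0.14 SE, adjusted p = 7.3e-05), and ACSS2 was at 37.3% of the miR (log2 fold change -1.42 ± 0.14 SE, adjusted p = 0.00047). The miR against control gave -0.51 (adjusted p = 0.13), no call.

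In MCF10A, ACSS2 read 735 and 687 with the isomiR, 986 and 1079 with the miR and 849 and 987 with the controls. The isomiR arrays were the lowest there too, at 77.6% of control (log2 fold change -0.37, adjusted p = 0.1). The isomiR effect was lower in MDA-MB-231 than in MCF10A by 1.57 on the log2 scale (difference -1.57, 95% confidence interval -2.02 to -1.12, adjusted p = 0.0028), the only member called lower for the line difference (3.33%, against 3.29% of all genes). A second bright probe of ACSS2 gave -2.06 with the isomiR in MDA-MB-231 and -0.38 in MCF10A, and another probe, above background on 8 arrays, gave 0.00 in MDA-MB-231 and -0.08 in MCF10A. The bright probes of ACSS2 thus fell together in MDA-MB-231. The dim probe read 70 and 32.9 with the isomiR and 51.8 and 44.3 with the controls there, near the floor, so it could not show such a fall. With the mean of all probes the log2 fold change of ACSS2 was -1.33, still a call.

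FADS1, a desaturase of polyunsaturated fatty acids, was called in MCF10A. In MDA-MB-231 its values were 1155 and 1135 with the isomiR, 1141 and 1164 with the miR and 991 and 1066 with the controls. In MCF10A they were 292 and 323 with the isomiR, 532 and 523 with the miR and 535 and 554 with the controls. Both isomiR arrays of MCF10A were far below the other 4, and in MDA-MB-231 they were level with the miR arrays and above the controls. In MCF10A, FADS1 with the isomiR was at 56.4% of control (log2 fold change -0.83 ± 0.11 SE, adjusted p = 0.00078) and at 58.2% of the miR (log2 fold change -0.78, adjusted p = 0.0012), against 0.16 (adjusted p = 0.41) in MDA-MB-231. The line difference was 0.98 (95% confidence interval 0.64 to 1.32, adjusted p = 0.0069). FADS1 and CYP51A1 were the 2 members called higher for that difference (6.67%, against 2.18% of all genes).

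The other 6 members, ACLY, ACACA, FASN, ELOVL6, SCD and FADS2, which supply, carboxylate, assemble, elongate and desaturate the acyl chain, were called in no comparison of the mimics. With the isomiR their log2 fold changes ran from -0.12 (ACACA) to 0.43 (ELOVL6) in MDA-MB-231 and from -0.43 (FADS2) to 0.36 (FASN) in MCF10A. With the miR they ran from -0.02 (ACACA) to 0.42 (SCD) in MDA-MB-231 and from -0.37 (FADS2) to 0.41 (FASN) in MCF10A. FADS2 was above background on 6 arrays, 5 of MDA-MB-231 and 1 of MCF10A, so its MCF10A values are near the floor. FASN, the synthase that assembles the chain, read 2509 and 3729.8 with the isomiR, 3596 and 3818 with the miR and 3701 and 2786 with the controls in MDA-MB-231, and 6798 and 6096 with the isomiR, 5963 and 7458 with the miR and 4507 and 5604 with the controls in MCF10A. Its isomiR arrays overlapped the controls in MDA-MB-231 and lay above them in MCF10A, with no call in either line. Over all 8 members the median with the isomiR was 0.07 in MDA-MB-231 and -0.25 in MCF10A.

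Under the control mimics the lines themselves differed in many members. MDA-MB-231 was lower than MCF10A for 12 of 30 members (40%, against 19.9% of all genes) and higher for 3 (10%, against 20.5%). Of the 12, 5 were mevalonate enzymes (HMGCS1, MVD, IDI1, FDPS and GGPS1), 6 were sterol enzymes (SQLE, LSS, CYP51A1, MSMO1, EBP and DHCR7) and 1 was FASN. SQLE, squalene epoxidase, differed most, with 277 and 319 in MDA-MB-231 and 3548 and 4385 in MCF10A, which is 7.53% of MCF10A (log2 fold change -3.73 ± 0.13 SE, adjusted p = 1.4e-08). Its second probe read 72.2 and 96.2 in MDA-MB-231 and 957 and 1249.9 in MCF10A. MSMO1, a methyl oxidase of sterols, read 856 and 824 in MDA-MB-231 and 2628 and 2646 in MCF10A (31.8%). FDPS, which makes farnesyl diphosphate, read 340.2 and 335 in MDA-MB-231 and 929 and 955 in MCF10A (35.8%), and HMGCS1 was at 31.5% of MCF10A. None of these control arrays overlapped between the lines.

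The 3 members higher in MDA-MB-231 were INSIG2 (384% of MCF10A, log2 fold change 1.94 ± 0.20 SE, adjusted p = 2.1e-05), TM7SF2 (307%) and FADS1 (189%). The median member was -0.40, beside 0.04 over all genes, and by branch it was -0.78 for the mevalonate enzymes, -0.75 for the sterol enzymes, -0.18 for the SREBP system and 0.16 for fatty acid synthesis. The lines grew in different media, and the line and its medium cannot be told apart. The deposited values had been normalised within a line, so this comparison rests on the quantile normalization over all 12 arrays. The calls of EBP, FASN, GGPS1 and IDI1 were lost without 1 or more of the control arrays.

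**Figure D4:**
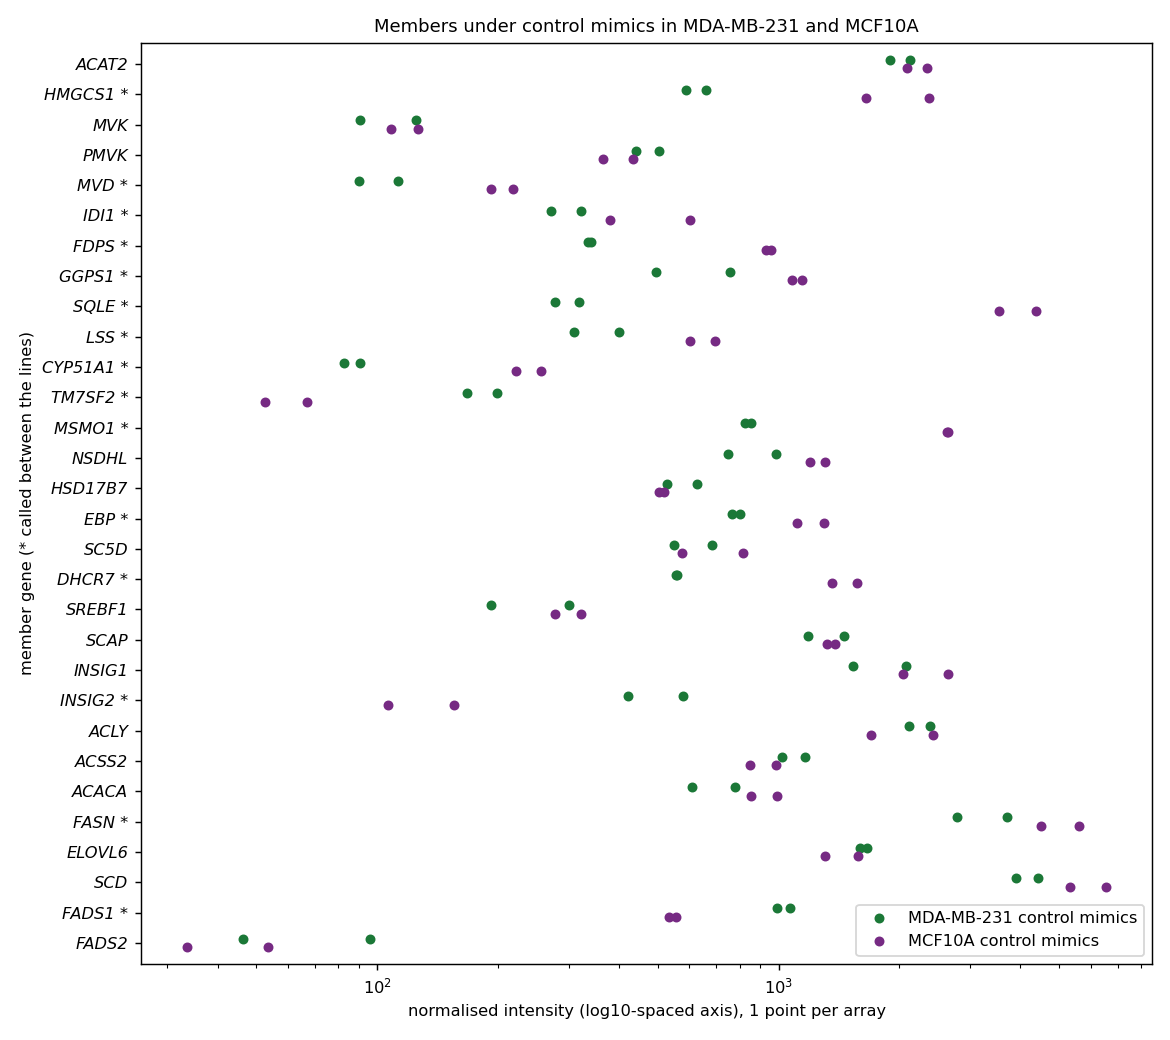
Normalised intensity of each member on the control arrays (log10-spaced axis, 1 point per array), MDA-MB-231 in green above MCF10A in purple, with an asterisk at called members. The points of SQLE lie at 277 and 319 in MDA-MB-231 and at 3548 and 4385 in MCF10A, while INSIG2 lies higher in MDA-MB-231.

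Lists of neighbouring pathways give the setting. Of 15 tested genes of sterol efflux, storage and transport, 2 were lower (13.3%, against 5.09% of all genes) and 0 higher with the isomiR in MDA-MB-231, and 2 were lower (13.3%, against 7.34%) and 3 higher (20%, against 5.25%) in MCF10A. SCARB1, a lipoprotein receptor, fell in both lines, with a log2 fold change of -0.73 (adjusted p = 0.021) in MDA-MB-231 and -1.06 (adjusted p = 0.0021) in MCF10A. LIPA, the lysosomal lipase that frees cholesterol from its esters, fell in MDA-MB-231 at -1.15 (adjusted p = 0.016), although its control arrays read 1137 and 578. MYLIP, a ligase that degrades lipoprotein receptors, and ABCG1, a sterol exporter, rose in MCF10A, at 1.93 (adjusted p = 2.2e-05) and 1.17 (adjusted p = 0.00066). MYLIP also rose with the miR in MCF10A, at 0.72 (adjusted p = 0.029).

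Fatty acid elongation, desaturation and activation held 13 tested genes, of which 1 was lower with the isomiR in MDA-MB-231 (7.69%, against 5.09% of all genes), and 2 were lower (15.4%, against 7.34%) and 2 higher (15.4%, against 5.25%) in MCF10A. ELOVL1, an elongase of very long chains, fell in both lines, at -0.76 (adjusted p = 0.023) in MDA-MB-231 and -1.14 (adjusted p = 0.0019) in MCF10A. ACSL1, which activates fatty acids, rose in MCF10A at 1.58 (adjusted p = 0.0017). ACSL5, of the same family, was at least 2.25-fold higher with the isomiR in MCF10A than with the controls, where it was at background (adjusted p = 2.2e-05). SCD5, a desaturase related to SCD, fell with the isomiR in MCF10A at -0.72 (adjusted p = 0.025). With the miR it was not above background on either array of MCF10A and was at least 1.82-fold lower than with the controls (adjusted p = 0.0071). These bounds set the brighter group's mean against the lowest signal above background on the dim arrays.

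Fatty acid oxidation held 14 tested genes with a median of -0.04 in MDA-MB-231 and 0.45 in MCF10A with the isomiR, and 0 were called higher in MDA-MB-231 (2.41% of all genes) and 2 in MCF10A (14.3%, against 5.25%). ETFB, an electron carrier, and CPT2, which imports fatty acids into mitochondria, were those 2 genes in MCF10A, at 0.97 (adjusted p = 0.0049) and 0.83 (adjusted p = 0.001). Of 12 tested genes of the isoprenoid branch that leads to dolichol, ubiquinone and prenylated proteins, 0 were called by limma with either mimic against control in either line, although at an unadjusted p under 0.05 the isomiR gave 0 lower and 4 higher in MDA-MB-231 and 2 lower and 4 higher in MCF10A. Of 8 tested genes of the machinery that processes SREBP and degrades sterol enzymes, 0 were called against control, and with the isomiR 1 was lower and 1 higher in MDA-MB-231 and 1 lower and 2 higher in MCF10A at an unadjusted p under 0.05. MBTPS2, a protease that cuts SREBP, was higher with the isomiR than with the miR in MDA-MB-231 (log2 fold change 0.97, adjusted p = 0.048) and MCF10A (log2 fold change 0.93, adjusted p = 0.03). ERLIN1, a protein of the endoplasmic reticulum membrane, was lower with the isomiR than with the miR in MCF10A (log2 fold change -1.03, adjusted p = 0.035), and in MDA-MB-231 it stood at -0.93 (adjusted p = 0.087), no call. Triglyceride and phospholipid synthesis had 12 tested genes, 0 called in MDA-MB-231 and 2 in MCF10A with the isomiR, LPIN1 higher at 0.99 (adjusted p = 0.0034) and PISD lower at -0.69 (adjusted p = 0.0068) (8.33% in each direction, against 5.25% higher and 7.34% lower of all genes).

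Lists outside lipid metabolism were measured as well. Of 9 tested cell cycle genes, 3 were higher with the isomiR in MDA-MB-231 (TOP2A, CDK1 and PCNA; 33.3%, against 2.41% of all genes) and 1 in MCF10A (TOP2A; 11.1%, against 5.25%), with a median of 0.57 in MDA-MB-231 and 0.29 in MCF10A. Of 10 interferon response genes, 0 were called in MDA-MB-231, with 1 lower and 1 higher at an unadjusted p under 0.05, and 1 was lower in MCF10A (10%, against 7.34%), with a median of 0.03 in MDA-MB-231 and 0.10 in MCF10A. The called gene was ISG15, which was not above background there with the isomiR and at least 1.9-fold lower than with the controls (adjusted p = 0.00036). Among the epithelial markers in MCF10A, KRT14 was at 36.8% of control with the isomiR, CDH1 at 223% and KRT8 at 189%, all called, whereas KRT5 was at 90.8%, DSG3 at 95.4%, KRT18 at 128% and GATA3 at 135%, none called. KRT14 was also lower with the miR in MCF10A, at 51.5% of control (adjusted p = 0.029), and 0 of these markers were called with either mimic in MDA-MB-231. KRT5, KRT14, CDH1, DSG3 and GATA3 were above background on 0 of 6 arrays of that line, so a fall could be measured there for KRT8 and KRT18 alone. Of the leukocyte and endothelial markers measured, PTPRC, CD3E and CDH5 stayed at background. PECAM1 was above background on 3 of 6 MDA-MB-231 arrays and, in MCF10A, on the 2 isomiR arrays alone. Its deposited intensities were 106 to 180 in MDA-MB-231 and 113 to 338 in MCF10A. With the isomiR, PECAM1 was called higher than control in MCF10A (adjusted p = 0.0012), where the control arrays were at background. In MDA-MB-231 it was not called (log2 fold change 1.04, adjusted p = 0.09). The part of these changes in the values of the members was not tested.

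**Figure D5:**
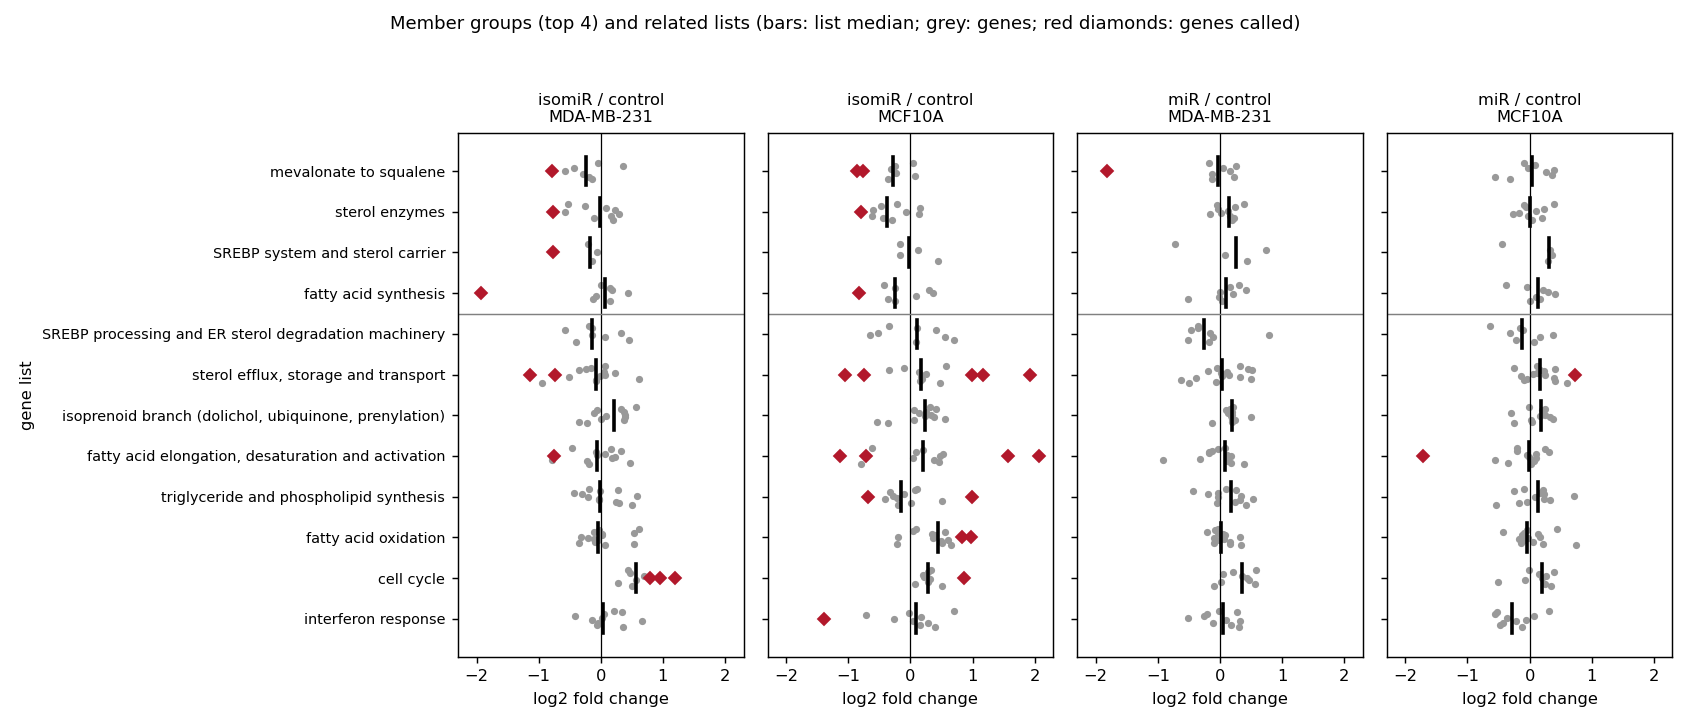
Log2 fold change of every tested gene in the 4 member groups (above the line) and 8 related lists (below it) for each mimic against control in each line, with list medians as bars and called genes as red diamonds. The isomiR columns hold most of the diamonds, and the bar for fatty acid oxidation stands at 0.45 in MCF10A with the isomiR and near 0 elsewhere.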

How the data were processed

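Messenger RNA of 12 cultures was hybridised to Illumina HumanHT-12 v4 arrays, 1 culture per array. The authors deposited linear intensities, normalized across the 6 arrays of each line by a method not given in the sources used here, with no background subtracted. A second deposited table, of signals before normalization, has 24 per-sample columns that could not be matched to a label, and these were not used here. The labels name Exiqon as the source of the mimics. The methods name Ambion for the miRNA mimics and Dharmacon for the negative controls. By the methods, supplier and small RNA thus cannot be told apart where a mimic is compared with the controls. Of 47323 probes, 4 with a missing value were left out, and 30113 were paired with 1 gene through the array's annotation.

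In R 4.3.3 with limma 3.58.1, neqc applied normexp background correction (offset 16, with 457 olfactory receptor probes as negative controls), quantile normalization over the 12 arrays and log2. Probes above the 0.99 quantile of the olfactory receptor probes on at least 2 arrays were kept, the brightest probe represented a gene, and a group-means model with 6 groups (6 residual and 3.79 prior degrees of freedom) was fitted over 10491 genes with Benjamini-Hochberg adjustment. The number of arrays limits the precision. The members and all lists were chosen with earlier results of these data known. Values of every array are given for members called within a line and for SREBF1, SREBF2, SCAP, INSIG1 and INSIG2, the largest change in each comparison is given with its standard error, and up to 4 called genes of each related list, those with the largest changes, are named, beside the genes whose isomiR effect differed between lines in the closing section. The epithelial, leukocyte and endothelial markers were named for the check of the cells. The model was tested on simulated data. The alternatives tried were median scaling, no background correction, log2 of the deposited values, other filters, the mean of all probes, each line fitted alone, trend and robust moderation, the methods' t-test, no fold limit, a replicate block and each array left out in turn. Promoters and miRNAs came from RefSeq tables of GRCh38.p14.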

Additional observations from a re-analysis of the deposited data

Results flagged for a closer look

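The effect of the isomiR differed between the lines, by the interaction term of limma, for 3 members. The difference, MDA-MB-231 minus MCF10A on the log2 scale, was -1.57 (adjusted p = 0.0028) for ACSS2, 0.98 (adjusted p = 0.0069) for FADS1 and 0.78 (adjusted p = 0.049) for CYP51A1. ACSS2 and FADS1 kept this call under all 20 alternatives that give it, and CYP51A1 under 4 of 20. Related genes with the same kind of call were ABCA1 (-1.94, adjusted p = 0.02), MYLIP (-1.32, adjusted p = 0.0028), LPIN1 (-1.02, adjusted p = 0.042), HADHA (-0.71, adjusted p = 0.042), ACSL1 (-1.63, adjusted p = 0.025) and ERLIN2 (0.84, adjusted p = 0.036). ACSL5 (-2.15, adjusted p = 0.00044) and ISG15 (2.06, adjusted p = 0.0012) had a group at background in MCF10A and ABCG1 (-1.25, adjusted p = 0.0092) all groups of MDA-MB-231, so these values are no measured differences between lines. Groups of 2 arrays are too small for a search for outlying arrays.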

How the results depend on the processing

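No member call reversed its direction under any alternative. Counted over all alternatives, calls of members were kept 783 times and lost 164 times. That tally covers all comparisons, and many of its fits leave out an array outside the groups compared, which keeps the fold change. Without the fold limit no call can be lost, so the kept count is partly fixed in advance. The methods' t-test after Benjamini-Hochberg adjustment called 0 members in each of the 6 comparisons within a line, 2 lower and 0 higher between the lines' controls, and unadjusted it called 2 lower with the isomiR in MDA-MB-231. Without the fold limit, 7 members were lower with the isomiR in MCF10A and 11 against the miR there. Over all genes the lower calls with the isomiR there ranged from 0 to 1145 over the alternatives other than leaving 1 array out. Against the miR they ranged from 0 to 1037 in MCF10A and from 1 to 476 in MDA-MB-231. The counts of members under these alternatives thus do not describe the members alone. Against the miR in MCF10A, 3 members were lower with no background correction and 3 with the deposited values, and in MDA-MB-231 3 were lower with each line fitted on its own. With trend and robust moderation 1 member was higher with the miR in MDA-MB-231. For the line difference of the isomiR effect, 1 member was higher under median scaling, no background correction, the deposited values, the filter at the 0.95 quantile, no filter, and trend and robust moderation. The t-test and the separate fits cannot give a test of the line difference. A fit without 1 array leaves a group of 1. The calls over all genes also moved in these fits, so the counts that follow do not describe the members alone. With each array left out in turn, 2 to 4 members were lower with the isomiR in MDA-MB-231 and 3 to 6 in MCF10A, 1 to 2 were lower and 0 to 1 higher with the miR in MDA-MB-231 and 0 to 1 lower in MCF10A, and the isomiR was below the miR for 1 to 7 members in MDA-MB-231 and 2 to 6 in MCF10A. The line difference gave 1 lower and 1 to 2 higher members, and the controls gave 9 to 13 lower and 3 to 4 higher. Against control, the count of 2 in MDA-MB-231 came without isomiR replicate 1. Against the miR, MDA-MB-231 gave 1 lower without miR replicate 2, 2 without miR replicate 1 or isomiR replicate 1 and 3 without isomiR replicate 2, and MCF10A gave 2 without miR replicate 2 or isomiR replicate 1 and 3 without isomiR replicate 2.

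With a replicate block on the 8 mimic arrays, 7 members were lower and 1 higher with the isomiR than with the miR in MDA-MB-231 and 6 lower and 0 higher in MCF10A, the same counts as without the block. Over all genes the block gave 420 lower and 188 higher in MDA-MB-231, against 463 and 197 without it on these arrays. The deviations of same-numbered arrays correlated at -0.02 in MDA-MB-231 and 0.02 in MCF10A. With 2 arrays per mimic, this cannot show whether same-numbered cultures were handled together. Over all genes, the lower calls with the isomiR ranged from 1 to 720 in MDA-MB-231 (534 as reported) and from 0 to 1145 in MCF10A (770 as reported) over the alternatives that keep all arrays, the lowest by the adjusted t-test. The groups of 2 arrays limit what can be called, and dim members such as FADS2 and TM7SF2 are limited by background.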
